A study of Mus musculus with 39 samples.

Results

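The 10 genes described here are classical target genes of the glucocorticoid receptor (GR), taken by symbol from a fixed list and counted in every library of the series: Fkbp5, Tsc22d3, Dusp1, Errfi1, Sgk1, Zbtb16, Klf9, Mt1, Mt2 and Cdkn1a. They are 10 of the 45706 genes counted in every library, and all 10 passed the filter on low counts in every comparison. The study asked how loss of E47, a basic helix-loop-helix transcription factor, alters the response of mice to glucocorticoids, and it deposited 39 bulk RNA-seq libraries in 12 groups from 6 experiments. For the 10 genes the design holds a set of comparisons between treatments in liver, a comparison of genotypes within each experiment, and a comparison of 3 tissues after the same treatment.

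All mice were male, on a C57BL/6 background, on chow and 10 to 16 weeks old. Dexamethasone (Dex), a synthetic GR agonist, was added at 10 µg/ml to the drinking water of E47-/- mice (E47KO) and E47+/+ littermates (wild-type) for 3 weeks, with liver from 3 E47KO and 2 wild-type mice, quadriceps muscle from 3 and 2, and epididymal white adipose tissue (WAT) from 2 and 2. Corticosterone (Cort), the natural glucocorticoid of rodents, was given at 100 µg/ml for 3 weeks, with liver from 4 E47KO and 4 wild-type mice. A single intraperitoneal injection of 1 mg/kg Dex preceded liver collection by 1 h in 3 Albcre/+;E47fl/fl mice (AlbCre mutants) and 3 controls without Cre, of which 2 were Alb+/+;E47fl/fl and 1 was Alb+/+;E47fl/+. Livers of 6 E47KO and 5 wild-type mice came from untreated animals. The E47-/- mice lacked E47 in all cells throughout life, whereas the study describes the Albumin-Cre line of the AlbCre mutants as hepatocyte-specific. Mice treated for 3 weeks were killed after a glucose tolerance test, and injected mice had free access to food. No treatment had a vehicle group of its own among these samples, so the treatment cannot be told apart from the experiment, with its library kit, RNA extraction, fasting state, floxed alleles and hour of collection.

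Libraries held 15.5 to 54.6 M counts in genes (M, mega), the fewest in the 1 h Dex and 3 weeks Dex livers, and the rarest of the 10 genes, Cdkn1a in untreated liver, still had at least 19 counts in a library. Tcf3, the gene that encodes E47 together with its splice partner E12, was counted as a whole and not by exon, so it does not check the knockout: it stood at 10.97 to 17.2 CPM (counts scaled to a library of 1 M) in untreated wild-type livers and 10.8 to 13.04 in untreated E47KO livers, and at 6.12 to 7.27 and 6.76 to 6.95 in controls and AlbCre mutants after injection. Of 9 hepatocyte markers found in the annotation, 9 exceeded 1 CPM on average in every liver group, with a summed level of 80959 to 154533 CPM per library. Markers of skeletal muscle summed to 0.636 to 411 CPM in livers, highest in some untreated and Cort livers. Since these are bulk tissues, fewer cells of a type and less RNA per cell cannot be told apart. Nothing in the labels ties replicates to separate litters or days, so p-values measure the spread between these mice.

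GR resides in the cytoplasm in a complex with heat shock proteins, binds the hormone, enters the nucleus and acts on genes through palindromic response elements or through other transcription factors. In liver it is known for control of gluconeogenesis, amino acid breakdown and the acute phase response. The 10 genes are used across tissues as readouts of the receptor and fall into several roles. Fkbp5 encodes a co-chaperone that lowers hormone binding by the receptor and so closes a feedback loop. Tsc22d3 encodes GILZ, an anti-inflammatory leucine zipper protein, Dusp1 a phosphatase that inactivates MAP kinases, and Errfi1 an inhibitor of the EGF receptor. Sgk1 encodes a serum- and glucocorticoid-regulated kinase, Zbtb16 and Klf9 encode transcription factors with zinc fingers, Mt1 and Mt2 encode metallothioneins, which bind zinc and copper, and Cdkn1a encodes p21, an inhibitor of the cell cycle that also responds to p53.

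In the mm10 annotation the genes lie at 17:28399094-28517527 (Fkbp5, minus strand), X:140539528-140600659 (Tsc22d3, minus), 17:26505590-26562128 (Dusp1, minus), 4:150853919-150868892 (Errfi1, plus), 10:21882184-21999903 (Sgk1, plus), 9:48654297-48836222 (Zbtb16, minus), 19:23141226-23168134 (Klf9, plus), 8:94179082-94180327 (Mt1, plus), 8:94172664-94173568 (Mt2, plus) and 17:29090976-29100727 (Cdkn1a, plus). Exons of Dusp1 overlap the opposite-strand gene Ergic1, and exons of Mt2 and Cdkn1a overlap 1 opposite-strand gene each. The counts used here ignored strand and did not separate reads of such partners, and strand-resolved counts served only as an alternative. RefSeq promoter windows of 300 bases, from 250 before to 50 after a transcription start (assembly GRCm38.p6), were found for 9 of the 10 genes, in 18 windows, with none for Zbtb16. The 3 windows below are shown because they hold the response elements a reader would look for: the strict palindromic element of GR, AGAACA and TGTTCT with any 3 bases between them, in 1 of the 6 Sgk1 windows (chr10:21993640-21993939, plus strand), a relaxed form of it, GNACA and TGTNC with any 3 bases between them, in Mt1 (chr8:94178839-94179138, plus strand), and the metal response core TGCNCNC in Mt2 (chr8:94172368-94172667, plus strand). Capitals mark the strict element in Sgk1, the relaxed element and the metal response core in Mt1, and the metal response core in Mt2, in either orientation, and each window reads 5′ to 3′ on the strand of the gene.
Sgk1: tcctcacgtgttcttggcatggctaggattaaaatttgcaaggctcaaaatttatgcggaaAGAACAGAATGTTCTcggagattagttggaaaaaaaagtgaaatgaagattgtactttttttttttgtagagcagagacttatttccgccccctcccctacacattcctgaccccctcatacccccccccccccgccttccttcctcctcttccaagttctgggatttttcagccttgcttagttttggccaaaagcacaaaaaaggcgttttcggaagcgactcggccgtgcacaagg
Mt1: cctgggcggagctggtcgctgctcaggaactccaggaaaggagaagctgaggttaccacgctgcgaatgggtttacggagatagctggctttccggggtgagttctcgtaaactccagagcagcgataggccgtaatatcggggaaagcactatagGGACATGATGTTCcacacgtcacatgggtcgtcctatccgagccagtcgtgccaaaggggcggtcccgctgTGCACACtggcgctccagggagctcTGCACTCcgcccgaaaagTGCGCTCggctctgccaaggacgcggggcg
Mt2: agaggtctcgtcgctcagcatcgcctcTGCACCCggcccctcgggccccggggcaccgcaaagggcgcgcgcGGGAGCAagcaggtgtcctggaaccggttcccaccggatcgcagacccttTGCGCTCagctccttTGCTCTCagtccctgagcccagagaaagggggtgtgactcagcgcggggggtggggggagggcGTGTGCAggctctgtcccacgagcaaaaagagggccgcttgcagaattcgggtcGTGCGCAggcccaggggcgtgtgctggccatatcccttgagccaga

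The strict element was present in 3 of 32851 promoter windows of the genome (0.00913%), and Sgk1 held one of them, 189 bases before the start. The relaxed element was present in 0.475% of windows and in 2 of the 18 windows of the 9 genes. These were in Sgk1, where it is the same site, and in Mt1, 94 bases before the start. The single half-site TGTTCT, searched on both strands, stood in 19% of windows and in 4 of the 18, in Sgk1 and Tsc22d3. The metal response core stood in 51% of windows and in 8 of the 18, which lie in 7 of the 9 genes. It had 3 matches in Mt1 and 6 in Mt2, and it overlapped none of the GR elements searched. The E-box CANNTG, the class of element that E47 binds, stood in 72.3% of windows. It stood in 14 of the 18, which lie in 9 of the 9 genes. Its form CAGGTG stood in 20.2% of windows and in 2 of the 18, in Mt2 and Cdkn1a. A match in such a window is a description of its letters, and elements farther from the start were not searched.

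Some livers stood apart before any comparison. In the Cort experiment, the mice carried numbers from an earlier and a later range, and the 3 livers of the earlier range (wild-type replicate 1 and E47KO replicates 1 and 2) lay below all 5 livers of the later range for 6 of the 10 genes, against 7.92% of 11907 expressed genes that lay lower without overlap and 7.33% that lay higher. Fkbp5 ranged from 52.8 to 73.0 CPM in the earlier and 268 to 505 CPM in the later livers, and Zbtb16 from 2.403 to 4.33 against 35.3 to 69.3 CPM. Tsc22d3, Sgk1, Cdkn1a and Errfi1 showed the same order. The mean log2 CPM of 10 immediate early genes was 2.67 to 4.25 in the earlier and 2.23 to 2.46 in the later livers, and its part in the result was not tested. Skeletal muscle markers summed to 0.993 to 1.04 CPM in the earlier and 155 to 210 CPM in the later livers. Their part in the result was not tested either. In the 3 weeks Dex experiment, E47KO liver 3 was the lowest of 5 livers for all 10 genes, whereas 22.2% of genes were lowest in it, and its mean log2 CPM of acute phase genes was 9.20 against 7.56 to 8.08 in the other 4. Untreated wild-type liver 5 had the highest Mt2 of its group and a mean acute phase level of 10.45. Values without these livers are given beside several of the results. The livers were singled out after their levels of these same genes were seen, so such values describe and do not test.

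In control livers, 4 to 8 of the 10 genes were higher than in untreated livers, depending on the treatment. After 1 h of Dex, 6 of the 10 genes were higher than in untreated livers by edgeR with a Benjamini-Hochberg adjusted p under 0.05 (Tsc22d3, Dusp1, Sgk1, Mt1, Mt2 and Cdkn1a) and 0 were lower, against 20.4% of 16227 tested genes called in either direction and 10% called higher. After 3 weeks of Dex, 8 of the 10 were higher (all but Tsc22d3 and Errfi1), against 31.9% called in either direction and 15.6% called higher. After 3 weeks of Cort, 4 of the 10 were higher (Fkbp5, Mt1, Mt2 and Cdkn1a), against 33.2% called in either direction and 17% called higher. The median log2 fold change of the 10 genes was 1.70, 2.36 and 0.95, and the median over all tested genes lay at −0.04, −0.04 and 0.01. The 3 comparisons used the same 5 untreated livers and are not independent of each other.

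**Figure D1:**
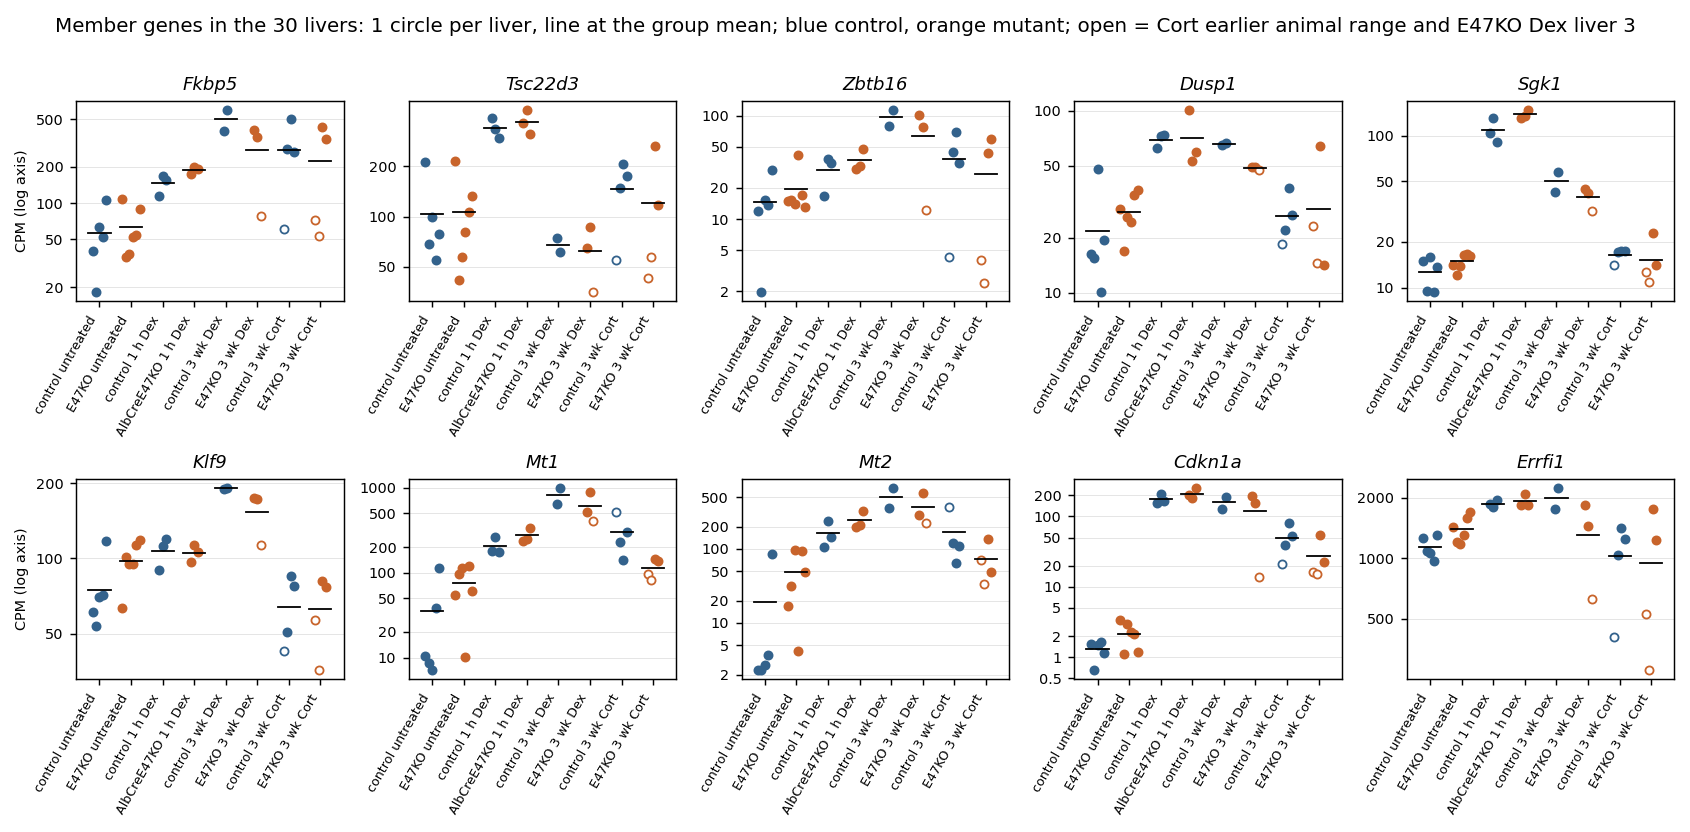
Each panel plots 1 of the 10 genes in 30 livers as CPM on a log axis, by treatment and genotype (blue, controls; orange, mutants), with a line at each group mean and open symbols for the 3 Cort livers of the earlier range and Dex E47KO liver 3. Cdkn1a lay between 0.654 and 3.34 CPM in untreated livers and at 13.7 CPM or more in every treated liver, Sgk1 was highest after 1 h, and the open symbols lie at the low end for most genes.

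**Figure D2:**
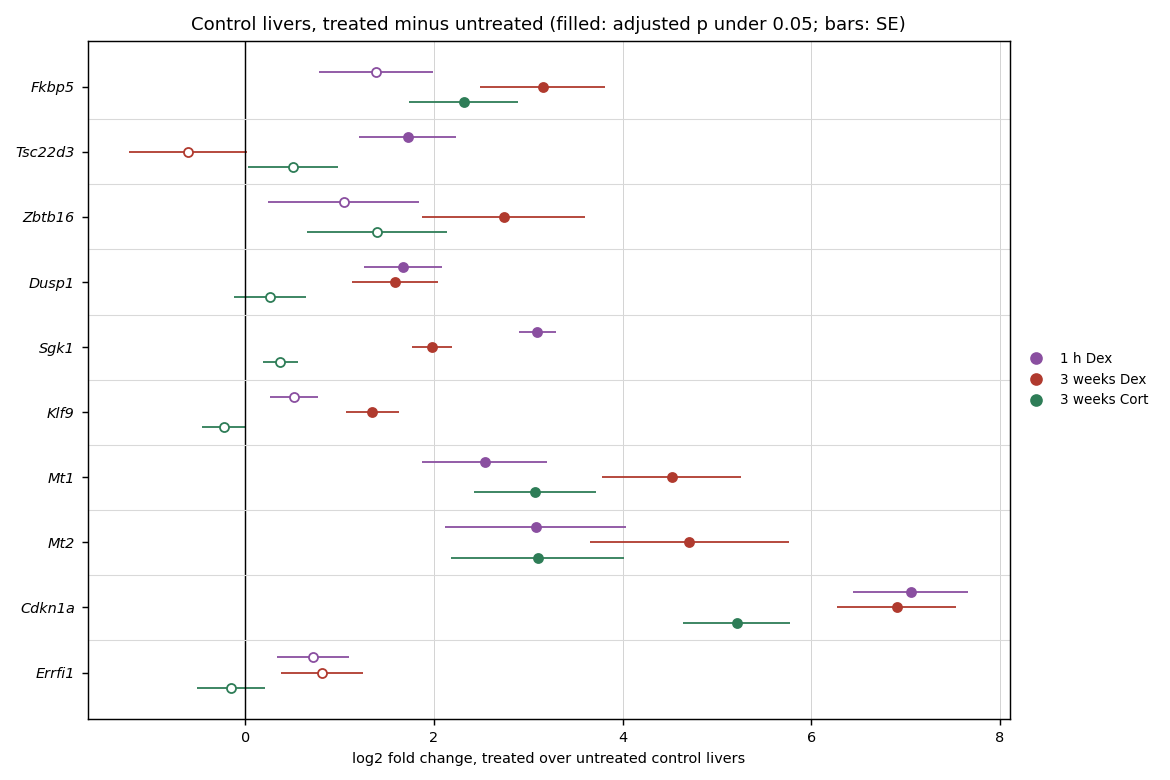
The plot gives the log2 fold change of each gene against untreated wild-type liver after 1 h of Dex, 3 weeks of Dex and 3 weeks of Cort in control livers, with bars of 1 SE and filled symbols for an adjusted p under 0.05. Cdkn1a stood at 7.05, 6.90 and 5.21, and Tsc22d3 was filled for 1 h of Dex alone.

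Cdkn1a, which encodes the cell cycle inhibitor p21, differed most from untreated liver. It stood at 1.54, 0.654, 1.51, 1.64 and 1.16 CPM in the 5 untreated wild-type livers. In control livers it reached 155, 206 and 163 CPM at 1 h of Dex, 128 and 188 CPM after 3 weeks of Dex, and 21.4, 39.4, 81.3 and 52.6 CPM after 3 weeks of Cort. Every treated liver lay above every untreated liver, in both genotypes. The log2 fold change was 7.05 ± 0.61 (SE, adjusted p = 8.59e-09, edgeR) at 1 h, a difference of 133-fold. It was 6.90 ± 0.63 (adjusted p = 1.08e-08) after 3 weeks of Dex and 5.21 ± 0.56 (adjusted p = 3.69e-07) after Cort. Of 8 other p53 targets, 2 were higher at 1 h (10% of all genes called higher) and 2 after 3 weeks of Dex (15.6%). The latter were Trp53inp1, by 3.94, and Mdm2, which restrains p53, by 0.69 on the log2 scale. After Cort, 4 were higher (17%), with 0.76 for Mdm2 and 0.57 for Ccng1.

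Sgk1, the glucocorticoid-induced kinase, was highest at 1 h. It stood at 14.95, 9.50, 16.05, 9.37 and 13.7 CPM in untreated wild-type livers and at 105, 130 and 90.7 CPM in controls 1 h after injection. After 3 weeks it was at 42.7 and 57.6 CPM with Dex and at 14.02, 17.1, 17.4 and 17.4 CPM with Cort. The 1 h livers lay above the 3 weeks Dex livers and these above all untreated livers, whereas the Cort livers overlapped with the untreated ones. The log2 fold change was 3.10 ± 0.20 (adjusted p = 4.63e-11) at 1 h and 1.98 ± 0.21 (adjusted p = 1.65e-07) after 3 weeks of Dex. With Cort it was 0.37 ± 0.18 (adjusted p = 0.117), which did not pass the test. Its spread among livers of a group was the smallest of the 10 genes, with a pooled SD of 0.29 on the log2 scale against 1.39 for Zbtb16 and Mt2 and 0.20 for the median gene.

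Tsc22d3, which encodes GILZ, was higher 1 h after injection and not after 3 weeks. Untreated wild-type livers held 214, 68.1, 99.9, 55.1 and 78.7 CPM, and the injected controls 391, 333 and 298 CPM. After 3 weeks, Dex livers held 74.8 and 61.0 CPM and Cort livers 54.7, 149, 207 and 176 CPM. All injected livers lay above all others, and those of both 3 weeks treatments lay within or overlapped the untreated range. The log2 fold change was 1.72 ± 0.51 (adjusted p = 0.0184) at 1 h and −0.60 ± 0.62 (adjusted p = 0.487) after 3 weeks of Dex, and 0.51 ± 0.48 (adjusted p = 0.438) after Cort. Without injected control replicate 1, the carrier of 1 floxed allele, the adjusted p at 1 h was 0.058. Set directly against each other, the 1 h and 3 weeks Dex livers differed by 2.33 ± 0.72 (adjusted p = 0.0164), a call that was lost without either of the 2 Dex livers (adjusted p = 0.0796 and 0.128).

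Fkbp5, the co-chaperone of the receptor, had its highest mean in control livers after 3 weeks of Dex, in a range that overlapped with that of Cort. Untreated wild-type livers held 39.8, 18.2, 63.5, 52.4 and 106 CPM, injected controls 115, 170 and 155 CPM and 3 weeks Dex livers 401 and 596 CPM. Both treated ranges lay above the untreated range. The log2 fold change was 1.39 ± 0.61 at 1 h, which did not pass the test (adjusted p = 0.109), and 3.15 ± 0.66 (adjusted p = 0.00068) after 3 weeks of Dex. The 1 h and 3 weeks Dex livers differed by −1.77 on the log2 scale (adjusted p = 0.0846). Cort livers held 60.4, 282, 505 and 268 CPM, with a log2 fold change of 2.32 ± 0.58 (adjusted p = 0.00353). The first of these is the earlier-range liver, which lay within the untreated range: it alone gave 0.10, and the other 3 gave 2.65 ± 0.45 (adjusted p = 0.00021). The split was made after these levels were seen, so that p is a description and not a test.

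Dusp1, the MAP kinase phosphatase, was higher after both Dex schedules than in untreated livers. It stood at 16.3, 15.5, 47.8, 10.1 and 19.4 CPM in untreated wild-type livers, at 62.1, 72.5 and 73.8 CPM in injected controls and at 64.6 and 66.4 CPM after 3 weeks of Dex. Both Dex ranges lay above the untreated range. The log2 fold change was 1.67 ± 0.41 (adjusted p = 0.00494) at 1 h and 1.59 ± 0.45 (adjusted p = 0.00898) after 3 weeks, the latter lost without wild-type Dex replicate 2 (adjusted p = 0.0628). With Cort it stood at 18.4, 22.0, 37.7 and 26.8 CPM, within the untreated range.

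Errfi1, the inhibitor of the EGF receptor, had the highest level of the 10 genes in untreated liver, also per length of exons. Untreated wild-type livers held 1264, 1085, 1067, 971 and 1311 CPM, injected controls 1871, 1802 and 1947 CPM and 3 weeks Dex livers 1765 and 2241 CPM. Although both Dex groups lay above the untreated group without overlap, the log2 fold changes of 0.72 ± 0.38 (adjusted p = 0.191) and 0.81 ± 0.43 (adjusted p = 0.152) did not pass the test in the fit to 30 livers. With the spread taken from the groups compared alone, they passed (adjusted p = 0.0104 and 0.015). Cort livers held 405, 1040, 1410 and 1247 CPM, and the earlier-range liver of 405 CPM lay below every untreated liver. That liver alone, singled out after it was seen to stand apart, gave −1.50, and the other 3 gave 0.12 (adjusted p = 0.726).

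The transcription factor Klf9 was higher after 3 weeks of Dex. It stood at 61.3, 53.6, 70.2, 71.5 and 118 CPM in untreated wild-type livers and at 190 and 191 CPM after 3 weeks of Dex, with no overlap and a log2 fold change of 1.35 ± 0.28 (adjusted p = 0.000605). Injected controls held 90.2, 112 and 119 CPM, which overlapped with the untreated range, and the change of 0.52 ± 0.26 (adjusted p = 0.153) passed only with the replicate number as a block (0.76, adjusted p = 0.0162) or without untreated wild-type replicate 5 (adjusted p = 0.0298). Cort livers held 42.7, 50.9, 85.2 and 77.8 CPM.

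The transcription factor Zbtb16, or PLZF, also had its highest levels after 3 weeks of Dex. It stood at 12.0, 1.96, 15.2, 13.7 and 29.6 CPM in untreated wild-type livers, 16.7, 38.0 and 34.98 CPM in injected controls and 79.8 and 114 CPM after 3 weeks of Dex. The 3 weeks Dex livers lay above the others, and the injected ones overlapped with the untreated ones. The log2 fold change was 1.04 ± 0.81 (adjusted p = 0.386) at 1 h and 2.74 ± 0.87 (adjusted p = 0.0171) after 3 weeks of Dex, the latter lost without wild-type Dex replicate 2 (adjusted p = 0.115). Cort livers held 4.33, 44.3, 69.3 and 35.3 CPM. Over all 4 the change was 1.40 ± 0.74 (adjusted p = 0.151), and over the 3 later-range livers it was 1.78 ± 0.55 (adjusted p = 0.0189). The later-range livers were set apart after these levels were seen, so the latter p is a description and not a test.

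Both metallothioneins were higher under each of the 3 treatments, but they varied widely among untreated mice. Mt1 stood at 10.4, 8.70, 7.09, 38.0 and 112 CPM in untreated wild-type livers, and Mt2 at 2.29, 2.31, 2.66, 3.66 and 85.8 CPM. The highest value of each came from wild-type liver 5, which also had the highest acute phase level, and the part of the acute phase response in these values was not tested. Mt1 reached 178, 263 and 176 CPM in injected controls, 634 and 989 CPM after 3 weeks of Dex, and 522, 230, 140 and 298 CPM after Cort, all above the untreated range. Its log2 fold changes were 2.54 ± 0.66 (adjusted p = 0.0077), 4.52 ± 0.73 (adjusted p = 3.87e-05) and 3.07 ± 0.64 (adjusted p = 0.000753). Without untreated wild-type liver 5 they were 3.68 ± 0.60, 5.66 ± 0.67 and 4.21 ± 0.60, larger by construction because its own level was high.

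Mt2 reached 104, 240 and 147 CPM in injected controls, 352 and 662 CPM after 3 weeks of Dex, and 371, 121, 63.7 and 110.7 CPM after Cort. Wild-type Cort liver 3 lay below untreated wild-type liver 5, and the other treated livers lay above it. Its log2 fold changes were 3.08 ± 0.96 (adjusted p = 0.0234), 4.71 ± 1.05 (adjusted p = 0.00117) and 3.10 ± 0.92 (adjusted p = 0.0111). Without untreated wild-type liver 5 they were 5.90 ± 0.80, 7.53 ± 0.87 and 5.92 ± 0.78, again larger by construction. The calls at 1 h did not hold with the groups compared alone (adjusted p = 0.0679 for Mt1 and 0.118 for Mt2), and that of Mt2 was also lost without injected control replicate 2 (0.0895) or untreated wild-type replicate 2 (0.0534). With Cort, Mt2 was lost without wild-type Cort replicate 1 (0.0583) and over the groups compared alone (0.0697). Of 8 other zinc and metal response genes, 4 were higher and 1 lower at 1 h. Values were 1.28 for the zinc importer Slc39a10 and −1.22 for the zinc exporter Slc30a1. After 3 weeks of Dex 1 was higher (Slc39a14, 1.02), and after Cort 2 were (Slc39a14, 0.66, and Gclc, 0.92). Of all genes, 20.4%, 31.9% and 33.2% were called in these comparisons, with 10%, 15.6% and 17% higher.

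Per length of exons, Errfi1 led in untreated wild-type livers with a mean of 318 CPM per kb, followed by Mt2 (32.9) and Mt1 (28.3), and Cdkn1a came last with 0.366. In wild-type livers after 3 weeks of Dex, Mt2 (862 CPM per kb) and Mt1 (651) stood above Errfi1 (559), and Sgk1 came last with 10.2. 

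Over both genotypes, the ranges of treated and untreated livers separated most often at 1 h. All 6 injected livers lay above all 11 untreated livers for 8 of the 10 genes (all but Zbtb16 and Klf9), where 5.65% of 11907 expressed genes lay higher without overlap. Sgk1, for example, ranged from 90.7 to 148 CPM after injection and from 9.37 to 16.7 CPM untreated. The 5 livers after 3 weeks of Dex lay above all untreated livers for 4 of the 10 (Sgk1, Mt1, Mt2 and Cdkn1a), against 10.9% of genes, and the 8 Cort livers for Cdkn1a alone, against 7.05%. No gene of the 10 lay below the untreated range in any of the 3.

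Set against each other directly, Cort and 3 weeks of Dex differed for 4 of the 10 genes, all lower with Cort, against 23.9% of genes called in either direction and 11.4% called lower. Klf9 was lower by 1.57 ± 0.29 on the log2 scale (adjusted p = 0.000386) and Sgk1 by 1.61 ± 0.23 (adjusted p = 1.68e-05), and both calls held with Cort livers of the later range alone (1.41 and 1.53). Cdkn1a was lower by 1.69 ± 0.58 (adjusted p = 0.0348) and Dusp1 by 1.32 ± 0.48 (adjusted p = 0.0455). Neither was called with later-range livers alone (adjusted p = 0.0798 and 0.0873), without either Dex liver, or without Cort replicate 1, 2 or 4. The doses and the ligand differed between the 2 experiments, and so did the library kit, so the ligand cannot be told apart from them.

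The injected livers differed from the 3 weeks Dex livers for 2 of the 10 genes, Tsc22d3 and Sgk1, both higher at 1 h, against 29.2% of genes called in either direction, 14.5% called higher and 14.8% called lower. Sgk1 was higher by 1.12 ± 0.26 (adjusted p = 0.00173). With the groups compared alone, 7 of the 10 were called, against 33.2% of genes, since Fkbp5 (−1.80), Zbtb16 (−1.72), Klf9 (−0.86), Mt1 (−2.01) and Mt2 (−1.66) then passed as lower at 1 h. Against Cort, 4 of the 10 genes were higher at 1 h (Sgk1 by 2.72 ± 0.21, Cdkn1a by 1.84 ± 0.53, Dusp1 by 1.41 ± 0.44 and Klf9 by 0.74 ± 0.27), against 41.7% of genes called in either direction and 20.3% called higher. The Klf9 call was lost with later-range Cort livers alone (0.59, adjusted p = 0.0597) and without injected replicate 2 or 3 or Cort replicate 1 or 2.

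E47KO livers after 3 weeks of Dex had higher levels of 6 of the 10 genes than untreated E47KO livers. Of all genes, 37.8% were called in either direction and 19.4% higher. Cdkn1a stood at 194, 154 and 13.7 CPM against 1.10 to 3.34 CPM (median 2.23) untreated, with a log2 fold change of 5.80 ± 0.53 (adjusted p = 9.47e-09). Sgk1 (1.41 ± 0.19), Fkbp5 (2.14 ± 0.58), Mt1 (3.01 ± 0.63), Mt2 (2.91 ± 0.89) and Klf9 (0.65 ± 0.24) were the others. The Klf9 call was lost without E47KO Dex replicate 1 or 2 or without untreated E47KO replicate 1, 3 or 4 (adjusted p = 0.0542 to 0.154), and that of Mt2 without E47KO Dex replicate 2 (0.0633). Fkbp5 stood at 404, 351 and 78.3 CPM, and liver 3 lay within the untreated E47KO range of 35.3 to 109 CPM. Zbtb16 stood at 102, 77.8 and 12.2 CPM, with a change of 1.73 (adjusted p = 0.0724). Without E47KO Dex liver 3 it was 2.23 (adjusted p = 0.03), and it also passed without untreated E47KO replicate 4 (0.0379). These livers stood apart for Zbtb16 itself, so leaving either out widens the change by construction.

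With Cort, 3 of the 10 genes differed between treated and untreated E47KO livers, against 38.9% of genes called. Fkbp5 and Cdkn1a were higher (21% called higher) and Klf9 was lower (18% called lower). Cdkn1a stood at 16.4, 14.998, 54.7 and 22.3 CPM, above all untreated livers, with a change of 3.64 ± 0.49 (adjusted p = 3.59e-06). Fkbp5 stood at 73.0, 52.8, 430 and 341 CPM, with a change of 1.83 ± 0.54 (adjusted p = 0.00944). Over the 2 earlier-range livers it was −0.01 ± 0.52 and over the 2 later-range livers 2.62 ± 0.47, and the call was lost without E47KO Cort replicate 3 (adjusted p = 0.0733). The Klf9 change of −0.64 ± 0.23 (adjusted p = 0.0307) was not called with the later-range livers alone (−0.30, adjusted p = 0.389), without E47KO replicate 1 or 2 of the Cort or 5 or 6 of the untreated livers, nor with the replicate number as a block (−0.47, adjusted p = 0.0752). Mt1 stood at 95.1, 81.9, 143 and 137 CPM in these livers, a change of 0.61 ± 0.58 (adjusted p = 0.433).

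Of 13 tested genes of the receptor pathway, 3, 2 and 3 passed the test in control livers at 1 h, after 3 weeks of Dex and after Cort, where 20.4%, 31.9% and 33.2% of all genes were called. Nr3c1, which encodes GR, had log2 fold changes in control livers of −0.14 (adjusted p = 0.63) at 1 h, −0.02 (0.95) after 3 weeks of Dex and −0.39 (0.0717) after Cort. At 1 h the chaperones Hsp90aa1 (0.98), Stip1 (0.71) and Hsp90ab1 (0.48) were higher. After 3 weeks of Dex the corepressor Ncor1 was higher by 0.67, and Nr3c2, the mineralocorticoid receptor, lower by 1.35. After Cort, Hsd11b1, which regenerates active glucocorticoid, was higher by 0.62 and Hsp90aa1 by 0.63, and Nr3c2 was lower by 0.73.

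Of 18 other GR target genes, 5 were higher and 1 lower at 1 h (20.4% of all genes called), 8 higher and 1 lower after 3 weeks of Dex (31.9%), and 1 higher and 1 lower after Cort (33.2%). Igfbp1, an insulin-like growth factor binding protein, averaged 23.4 CPM in untreated controls, 674 CPM at 1 h, 1608 CPM after 3 weeks of Dex and 24.5 CPM after Cort. Sult1e1, the estrogen sulfotransferase, averaged 0.301 CPM untreated and 483 CPM after 3 weeks of Dex. It was the gene called higher after Cort (7.43 on the log2 scale). Against 3 weeks of Dex, 9 of the 18 were lower with Cort (11.4% of all genes called lower), with −2.53 for Cebpb.

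Transcripts known to respond to handling or time of day were counted in the same 3 comparisons. There 20.4%, 31.9% and 33.2% of all genes were called, with 10%, 15.6% and 17% higher and 10.4%, 16.3% and 16.1% lower. Of 10 immediate early genes, 5 were higher at 1 h (Egr1 by 5.36, Fos by 5.06), 8 after 3 weeks of Dex (Jun by 3.79) and 2 after Cort. The 4 clock genes Arntl, Npas2, Clock and Nfil3 were higher at 1 h (Arntl by 3.98). Of 9 evening-phase clock genes, 9 were lower (Dbp by −9.13, Per3 by −5.16). After 3 weeks of Dex the counts were 4 higher of the 4 and 5 lower and 1 higher of the 9, and after Cort 3 and 3. The mean log2 CPM of the 9 evening genes was 4.94 to 5.94 in untreated, 1.27 to 2.57 in injected, 3.69 to 4.88 in 3 weeks Dex and 4.96 to 5.76 in Cort livers. Of 9 acute phase genes, 2 were higher at 1 h (Fgb by 0.73 and Crp by 0.63), 1 after 3 weeks of Dex (Crp by 1.13) and 2 after Cort (Hp by 0.92 and Crp by 0.43). Glucocorticoid secretion has a daily rhythm of its own, and hour of collection, handling and treatment cannot be told apart here.

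None of the 10 genes passed the adjusted threshold by edgeR between mutants and controls in any of the 6 experiments. By edgeR, 0 of the 10 were called in Dex liver (0.00752% of 13300 genes called), Cort liver (0.0274% of 14588, with 0.00685% higher and 0.0206% lower), 1 h Dex liver (0% of 12601), untreated liver (0.0288% of 13904, with 0.00719% higher and 0.0216% lower), Dex WAT (0% of 16289) and Dex muscle (0.0134% of 14962). At an unadjusted p under 0.05 there were 1, 1, 2, 2, 3 and 2 of the 10, where 3.08%, 9.84%, 3.7%, 3.63%, 4.29% and 3.94% of all genes passed. DESeq2 called Mt1 in Cort liver (1.85% of genes called) and Mt1 in Dex WAT (0.227%), and 0 of the 10 in the other 4 experiments. The median difference between mutants and controls was −0.42 in Dex liver, −0.31 in Cort liver, 0.30 in 1 h Dex liver, 0.37 in untreated liver, −0.41 in WAT and 0.05 in muscle. Within liver groups the 10 genes varied together (median Pearson r 0.45), so counts of their signs are not counts of separate observations.

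**Figure D3:**
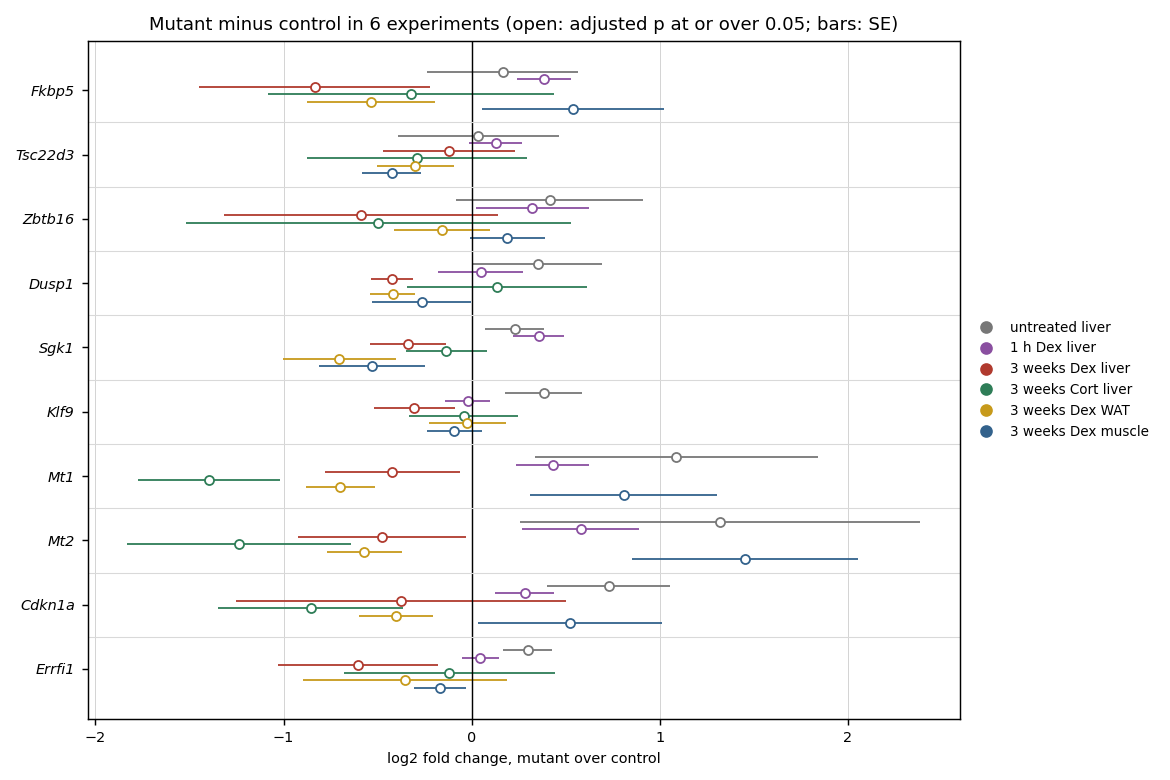
The plot gives the log2 difference between mutants and controls for each of the 10 genes in the 6 experiments, with bars of 1 SE, and all symbols are open because none reached an adjusted p under 0.05. The 10 genes lie below 0 in Dex liver and WAT and above 0 in untreated liver, and Mt1 in Cort liver stands at −1.40.

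In livers after 3 weeks of Dex, all 10 genes were lower in the mean of E47KO than of wild-type mice. Dusp1 stood at 49.4, 49.4 and 47.4 CPM in E47KO and 64.6 and 66.4 CPM in wild-type livers, with no overlap and a difference of −0.43 ± 0.11 (unadjusted p = 0.00692, adjusted p = 0.999, edgeR). Klf9 stood at 174, 173 and 114 CPM against 190 and 191 CPM, also with no overlap, and 7.45% of genes were lower without overlap. Fkbp5 stood at 404, 351 and 78.3 CPM against 401 and 596 CPM, a difference of −0.83 ± 0.61, and the interval of 2 SE reached from −2.06 to 0.39. Without E47KO liver 3, among mice of the earlier number range, it was −0.08 ± 0.20. That range held 2 E47KO livers and 1 wild-type liver, and within it 4 of the 10 genes were lower and 6 higher in E47KO. In the later range all 10 were lower in E47KO liver 3 than in the 1 wild-type liver beside it. B cell markers summed to 0.487 to 0.675 CPM in E47KO and 1.76 to 5.32 CPM in wild-type livers, and their part in the result was not tested.

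In Cort livers, 9 of the 10 genes were lower in E47KO mice, Mt1 by the most. Mt1 stood at 95.1, 81.9, 143 and 137 CPM in E47KO and 522, 230, 140 and 298 CPM in wild-type livers, which overlap by 1 liver of each. The difference was −1.40 ± 0.38 (unadjusted p = 0.005, adjusted p = 0.279) by edgeR and passed by DESeq2 (adjusted p = 0.00859). Mt2 stood at 70.6, 33.0, 135 and 48.4 CPM against 371, 121, 63.7 and 110.7 CPM, a difference of −1.24 ± 0.60 (unadjusted p = 0.0681), and Cdkn1a differed by −0.86 ± 0.49 (unadjusted p = 0.117). The earlier range held 2 E47KO livers and 1 wild-type liver. Within it 8 of the 10 genes were lower in E47KO and 2 higher, with Mt1 at −2.56, and within the later range 3 were lower and 7 higher, with Mt1 at −0.60. With the replicate number as a block, 29 of 14588 genes passed in place of 4, and 0 of the 10.

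In livers 1 h after injection, 9 of the 10 genes were higher and 1 lower in AlbCre mutants. Sgk1 stood at 131, 136 and 148 CPM in mutants and 105, 130 and 90.7 CPM in controls, with no overlap and a difference of 0.35 ± 0.13 (unadjusted p = 0.0285). Fkbp5 stood at 175, 201 and 193 CPM against 115, 170 and 155 CPM, with no overlap and a difference of 0.38 ± 0.14 (unadjusted p = 0.0287). Neither passed the adjusted threshold, and 3.82% of genes were higher in mutants without overlap. The other 8 genes overlapped between genotypes, among them Cdkn1a at 199, 181 and 252 CPM against 155, 206 and 163 CPM.

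In untreated livers, all 10 genes had a higher mean in E47KO mice, but each overlapped between genotypes. Cdkn1a ranged from 1.10 to 3.34 CPM (median 2.23) in 6 E47KO livers against 0.654 to 1.64 CPM in 5 wild-type livers, a difference of 0.73 ± 0.33 (unadjusted p = 0.0448). Errfi1 ranged from 1184 to 1697 CPM against 971 to 1311 CPM (0.30 ± 0.13, unadjusted p = 0.0406). Mt1 ranged from 10.2 to 118 CPM (median 78.0) against 7.09 to 112 CPM, a difference of 1.09 ± 0.75. The earlier library numbers held 1 E47KO liver and 2 wild-type livers, and all 10 genes were higher in that 1 liver than in the wild-type mean. The later ones held 5 and 3, and there 8 were higher and 2 lower in E47KO. Skeletal muscle markers summed to 1.18 to 1.79 CPM in the earlier and 20.1 to 411 CPM in the later libraries. Their part in the result was not tested. With the replicate number as a block, 2 of 13904 genes passed in place of 4, and 0 of the 10.

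The difference between the genotype effects of treated and untreated livers was itself tested. After Dex, 0 of the 10 genes passed (0.00616% of genes called), with 0 of the 10 at an unadjusted p under 0.05 and −0.57 ± 0.30 for Sgk1 (unadjusted p = 0.0654). After Cort, 0 passed (0.00616% of genes called), with 2 of the 10 at an unadjusted p under 0.05. Mt1 had −2.47 ± 0.87 (unadjusted p = 0.00868, adjusted p = 0.602) and Cdkn1a −1.56 ± 0.72 (unadjusted p = 0.0387). Without untreated wild-type liver 5, singled out by its own high metallothionein levels, Mt2 stood at −5.35 (adjusted p = 0.0468). Leaving out that liver widens the difference by construction, so the call lends no support. All 10 estimates were negative in each of these comparisons, which share the untreated livers. The 10 genes vary together from liver to liver, so their signs are not 10 separate observations. With 1 library left out, Tsc22d3 reached 0.17 with Dex and 0.019 with Cort, and Dusp1 reached 0.023 with Cort.

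The levels of the 10 genes differed widely between tissues of mice given Dex for 3 weeks. The values in these paragraphs are CPM scaled over the 14 libraries of the 3 tissues and are not those of the liver scale above. Averaged over genotypes, liver and muscle differed for 8 of the 10 genes, 5 higher and 3 lower in liver, against 76.4% of genes called, 36% higher and 40.4% lower. Liver and WAT differed for 5, 3 higher and 2 lower in liver, against 75.4% of genes, 33.8% higher and 41.6% lower. WAT and muscle differed for 7, 4 higher and 3 lower in WAT, against 77.3% of genes, 43.5% higher and 33.8% lower. These shares lay near or below those of all genes. The 10 genes did not keep one order across tissues: liver led for Errfi1, muscle for Zbtb16 and Sgk1, and WAT for Dusp1.

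**Figure D4:**
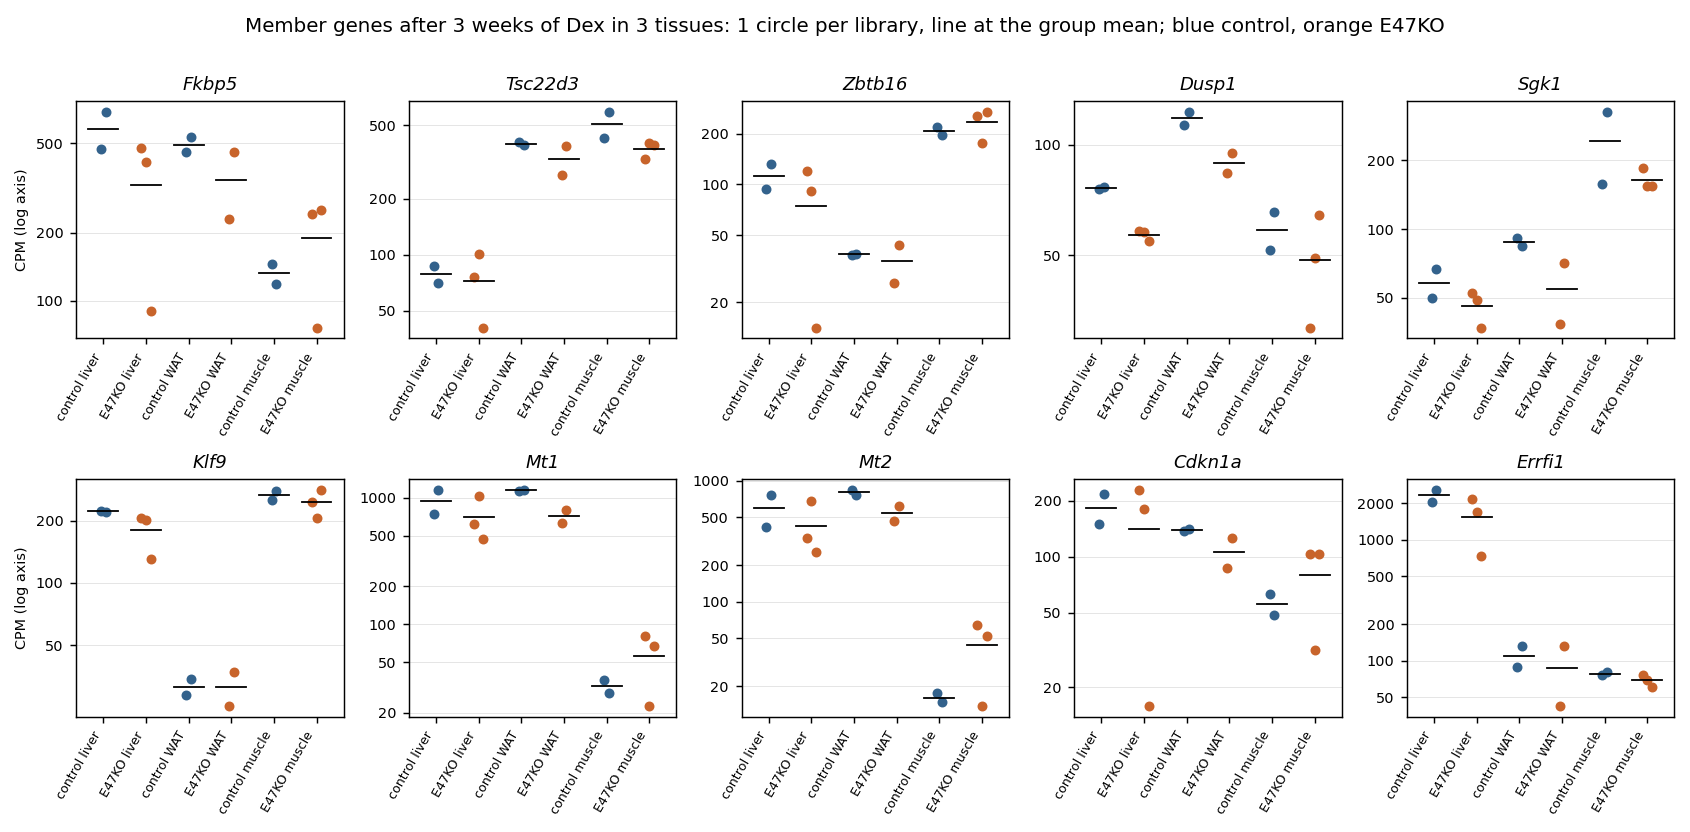
Each panel plots 1 of the 10 genes as CPM on a log axis in liver, WAT and muscle after 3 weeks of Dex, with 1 point per library, 14 in all, coloured by genotype. Errfi1 lies between 728 and 2593 CPM in liver and between 42.5 and 133 CPM in the other tissues, and Mt1 is lowest in muscle, at 22.7 to 80.2 CPM.

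Errfi1 stood at 2068 and 2593 CPM in wild-type and 2178, 1693 and 728 CPM in E47KO livers. It stood at 88.5 and 133 CPM in wild-type and 42.5 and 132 CPM in E47KO WAT, and at 61.2 to 81.3 CPM in muscle. Liver lay above the other tissues without overlap, by 4.68 ± 0.39 over muscle and 4.27 ± 0.41 over WAT on the log2 scale. Klf9, in contrast, was low in WAT alone. It ranged from 131 to 222 CPM in liver, 25.5 to 37.1 CPM in WAT and 206 to 282 CPM in muscle, with a difference of 2.67 ± 0.18 between liver and WAT. Hepatocyte markers summed to 3174 to 6386 CPM in WAT and 138352 to 178224 CPM in liver. Their part in the WAT levels was not tested.

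The metallothioneins were low in muscle. Mt1 stood at 743 and 1144 CPM in wild-type and 616, 1027 and 472 CPM in E47KO livers, and at 1136 and 1156 CPM in wild-type and 628 and 801 CPM in E47KO WAT. In muscle it stood at 36.7 and 28.8 CPM in wild-type and 80.2, 22.7 and 66.8 CPM in E47KO mice, 4.24 ± 0.37 below liver on the log2 scale. Mt2 showed the same order, with 13.8 to 64.6 CPM in muscle and 259 to 840 CPM in the other tissues.

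Tsc22d3 was lowest in liver. It stood at 87.6 and 70.6 CPM in wild-type and 75.9, 101 and 40.6 CPM in E47KO livers, against 270 to 406 CPM in WAT and 330 to 591 CPM in muscle. Liver lay 2.52 ± 0.23 (adjusted p = 5.55e-07) below muscle and 2.25 ± 0.24 below WAT. Zbtb16 stood at 176 to 270 CPM in muscle, 14.1 to 132 CPM in liver and 25.9 to 43.9 CPM in WAT, and Sgk1 at 154 to 327 CPM in muscle, 37.0 to 66.7 CPM in liver and 38.3 to 91.8 CPM in WAT. Muscle lay above the other tissues without overlap for both. The Zbtb16 difference from liver (−1.26 ± 0.42, adjusted p = 0.0149) was not called without wild-type liver 1 (adjusted p = 0.06) or without muscle of mice that also gave liver (0.0656). Dusp1 was highest in WAT, with 83.6 to 123 CPM against 54.6 to 76.8 CPM in liver and 31.7 to 65.7 CPM in muscle.

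Fkbp5 and Cdkn1a overlapped between tissues. Fkbp5 stood at 469 and 689 CPM in wild-type and 475, 410 and 90.3 CPM in E47KO livers, 454 and 531 CPM in wild-type and 230 and 457 CPM in E47KO WAT, and 76.2 to 254 CPM in muscle, with liver 1.45 ± 0.44 above muscle (adjusted p = 0.00951) and WAT 1.37 ± 0.45 above muscle (adjusted p = 0.015). The first call was lost without muscle of mice that also gave liver (adjusted p = 0.0725) and the latter without E47KO WAT replicate 3 (0.0624) or wild-type muscle replicate 2 (0.0518). Cdkn1a stood 1.27 ± 0.54 above muscle in liver (adjusted p = 0.0479), a call lost by DESeq2 (adjusted p = 0.0504) and when 9 of the 10 liver and muscle libraries were left out in turn (up to 0.132). Nr3c1 itself was highest in muscle, with means of 145 CPM in wild-type and 136 CPM in E47KO mice, then liver (98.6 and 95.8 CPM) and WAT (43.7 and 49.8 CPM). No untreated WAT or muscle was analysed here, so the levels do not separate a tissue's response from its basal level.

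Between genotypes, all 10 genes were lower in the mean of E47KO WAT, and 6 of them without overlap between 2 and 2 mice, where 15.2% of genes were lower without overlap. Mt1 differed by −0.70 ± 0.18 (unadjusted p = 0.0118), Dusp1, at 83.6 and 94.8 CPM against 113 and 123 CPM, by −0.42 ± 0.12 (unadjusted p = 0.0163), and Mt2 by −0.57 ± 0.20 (unadjusted p = 0.034). None passed the adjusted threshold by edgeR. DESeq2 called Mt1 (adjusted p = 0.0441), and without E47KO WAT replicate 3, 5 other genes of the 10 passed, with −1.40 for Errfi1 and −1.12 for Fkbp5. That fit leaves 1 mutant, takes its spread from the 2 wild-type libraries alone and called 333 of 16798 genes. With the number range as a covariate, which sets 1 mouse of each genotype beside the other in each range, 0 of 16289 genes passed. In muscle, Tsc22d3 stood at 330, 401 and 389 CPM in E47KO and 425 and 591 CPM in wild-type mice (−0.43 ± 0.16, unadjusted p = 0.0315). Mt2 stood at 64.6, 13.8 and 52.2 CPM against 17.5 and 14.7 CPM (1.45 ± 0.60, unadjusted p = 0.0485). Adipocyte markers in these muscles summed to 683 to 852 CPM in E47KO and 221 to 350 CPM in wild-type mice, and their part in the result was not tested.

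Within groups, several of the 10 genes varied together from liver to liver. After removal of each group's mean from log2 CPM in 30 livers, the median Pearson correlation over the 45 pairs was 0.45, with 41 pairs positive and a range from −0.17 to 0.90. Pairs taken at regular steps through the list of expressed genes (277885 pairs) had a median of 0.011. These are descriptions over 30 livers that share libraries, mice and depth, and the low livers named above weigh on them. Without the 3 earlier-range Cort livers and Dex E47KO liver 3 the median was 0.37.

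**Figure D5:**
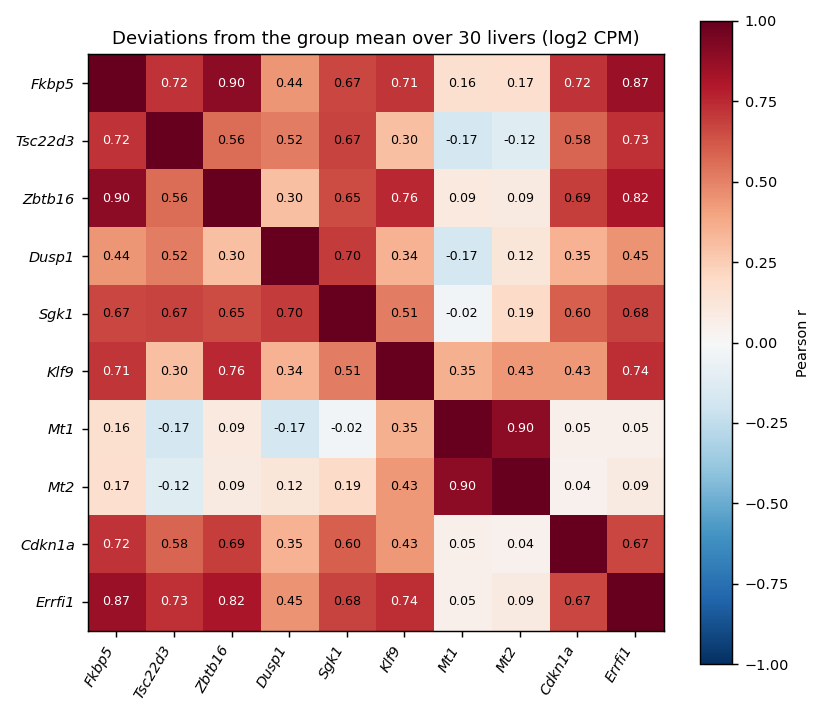
The heat map gives the Pearson correlation of each pair of the 10 genes over 30 livers, after removal of the mean of each of 8 groups from log2 CPM. Fkbp5 with Zbtb16 and Mt1 with Mt2 reach 0.90, and the metallothioneins stand near 0 with most others.

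The strongest pairs were Mt1 with Mt2 (r = 0.90, rho = 0.83), neighbours on chromosome 8, and Fkbp5 with Zbtb16 (r = 0.90, rho = 0.81). Fkbp5 with Errfi1 reached 0.87 and Zbtb16 with Errfi1 0.82. The median correlation of a gene with the other 9 was 0.71 for Fkbp5 and 0.68 for Errfi1, but 0.05 for Mt1 and 0.12 for Mt2. Over all genes of at least 10 CPM, the genes most like Fkbp5 were Il6ra, which encodes the receptor of interleukin 6 (0.93), Arhgef26 (0.93) and St3gal5 (0.92), and the one most like Errfi1 was Fbxo31 (0.92). The genes most like the metallothioneins were Fga, a fibrinogen chain, for Mt1 (0.80) and Serpina3n, a protease inhibitor, for Mt2 (0.76), both made in the acute phase response. The genes most like Zbtb16, Tsc22d3, Klf9, Cdkn1a, Sgk1 and Dusp1 were Shld2 (0.91), Tcim (0.87), Garem1 (0.86), Foxo1 (0.84), Hs6st1 (0.83) and Slc35g1 (0.72).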

How the data were processed

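RNA-seq was done on liver, WAT and muscle in 39 libraries. Per the methods and the submitters' processing notes, the authors mapped reads to mm10 and counted reads per gene with STAR 2.4.2a, and HTSeq is also named. The deposited files hold raw counts per gene and sample, neither normalized nor pooled. The unstranded column was used throughout, because the Cort libraries, labelled stranded, hold 50.1% of strand-resolved counts in their larger strand column against 96.9 to 97.7% in the other stranded ones. Entries outside genes (20.8 to 36.8%) and the authors' own tables of DESeq2 comparisons, which hold fold changes and p-values, were not used. At 15.5 to 54.6 M counts a library, counting error is small beside the spread between mice. None of 53 replicate pairs agreed within counting noise.

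Groups follow the sample labels. Tests used edgeR 4.0.16 in R 4.3.3 (TMM, filterByExpr, two-sided quasi-likelihood F test) with Benjamini-Hochberg adjustment over all genes tested and a threshold of 0.05, and were tested on simulated data. Genotypes were fitted within each experiment, treatments over 30 livers in 8 groups, and tissues over 14 libraries in 6 groups. Levels are TMM-scaled CPM, correlations used log2 CPM with a prior count of 2, and an SE is the log2 fold change over the root of F. Pattern counts took genes of at least 1 CPM on average. The 10 genes and all lists were chosen with earlier results of these data known. From each list (other GR targets, receptor pathway, immediate early, p53, metal response, acute phase and clock genes), at most 4 genes past the threshold with the smallest adjusted p could be named per comparison, besides Nr3c1 and the genes most correlated with each of the 10.

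Alternatives were RLE size factors, no filter, DESeq2 1.42.0, the strand column, a replicate block, number ranges, the groups compared alone and leaving out each library. Same-numbered livers of the 2 genotypes deviated together in every pair of the Cort (r 0.13 to 0.73) and untreated experiments (0.11 to 0.85). Pairs with different numbers reached 0.54 with Cort and 0.69 untreated, and same-numbered Cort pairs 1, 3 and 4 each lay within a single number range. These values do not show that the numbers pair the livers, and the labels do not say so. Same-numbered samples did not deviate together in every pair after 1 h of Dex (−0.09 to 0.25), in Dex liver (−0.54 to −0.12) or in muscle (−0.31 to 0.37). Number ranges come from file names (mice) and titles (untreated libraries). Of the mice given Dex, 3 gave both liver and muscle.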

Additional observations from a re-analysis of the deposited data

Results flagged for a closer look

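The 10 genes in the liver groups of 4 to 10 mice made 40 sets of values, and in 5 of them a library stood far from the rest of its group by Dixon's criterion, which chance meets in about 1 in 20 sets. Zbtb16 was highest in E47KO untreated liver 4, at 41.8 CPM against 13.05 to 17.1 CPM in the other 5. Mt1 was lowest in the same liver, at 10.2 CPM against 54.0 to 118 CPM. Klf9 was lowest in E47KO untreated liver 1, at 63.2 CPM against 95.0 to 119 CPM. That liver is the only E47KO one of the earlier library numbers. Mt2 was highest in untreated wild-type liver 5, at 85.8 CPM against 2.29 to 3.66 CPM. Sgk1 was lowest in wild-type Cort liver 1, the only wild-type one of the earlier number range, at 14.02 CPM against 17.1 to 17.4 CPM. Sgk1 was also higher in every AlbCre mutant than in every control 1 h after injection, by 0.36 on the log2 scale, and lower in every E47KO than in every wild-type WAT after 3 weeks of Dex (−0.75). The gap between these values is 1.11. The difference was not tested, and the experiments differ in tissue, schedule and allele.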

How the results depend on the processing

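Counts of the 10 genes called stayed within 1.5 times under most alternatives. The exceptions by DESeq2 were genotype in Cort liver and in Dex WAT, with 1 gene each against 0. Cort against 3 weeks of Dex gave 2 with 24 livers of global mice and 2 with later-range Cort livers alone, against 4. The 1 h against 3 weeks Dex comparison gave 7 with the groups compared alone, against 2. Liver against muscle gave 5 without muscle of mice that also gave liver, against 8. The causes were not tested. Leaving out 1 library at a time gave 0 to 5 for genotype in WAT (5 without E47KO replicate 3), 2 to 4 for Cort against 3 weeks of Dex, 1 to 2 for 1 h against 3 weeks of Dex and 0 to 1 for the difference of genotype effects with Cort. It gave 5 to 7, 6 to 8 and 3 to 4 for the 3 treatments against untreated, and 0 for genotype in the other 5 experiments.

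Over the 10 genes, all comparisons and all alternatives, 2663 of 2880 values kept direction and side of the threshold, 67 kept direction and lost the call, 46 kept direction and gained it, and 104 changed sign, 59 of them with 1 library left out. Of the 104, 102 were called in neither fit. The exceptions were Fkbp5 in E47KO livers with Cort, called at 1.83, and Zbtb16 there, called at −2.60 with earlier-range livers alone (adjusted p = 0.0183). The values that changed sign follow, on the log2 scale, with the value of the reported fit in brackets. With earlier-range Cort livers alone, E47KO livers against untreated gave −0.015 (1.83) for Fkbp5, −2.60 (0.50) for Zbtb16, −1.09 (0.19) for Tsc22d3, −0.57 (0.060) for Dusp1 and −0.36 (0.025) for Sgk1. Control livers gave −1.75 (1.40) for Zbtb16, −0.93 (0.51) for Tsc22d3 and −0.25 (0.27) for Dusp1, Cort against 3 weeks of Dex −0.31 (1.11) for Tsc22d3, and 1 h of Dex against Cort 2.79 (−0.36) for Zbtb16 and 1.28 (−0.93) for Fkbp5. With later-range Cort livers alone, genotype gave 0.13 (−0.32) for Fkbp5, 0.10 (−0.29) for Tsc22d3, 0.043 (−0.50) for Zbtb16, 0.093 (−0.13) for Sgk1, 0.14 (−0.043) for Klf9 and 0.27 (−0.12) for Errfi1. Errfi1 against untreated was 0.10 (−0.56) in E47KO and 0.12 (−0.15) in control livers, Mt2 at 1 h against Cort 0.73 (−0.025), and the difference of genotype effects 0.088 (−0.21) for Dusp1 and 0.081 (−0.32) for Tsc22d3. With earlier-range Dex livers alone, genotype gave 0.45 (−0.37) for Cdkn1a, 0.30 (−0.48) for Mt2, 0.15 (−0.42) for Mt1, 0.18 (−0.59) for Zbtb16, 0.023 (−0.34) for Sgk1, 0.022 (−0.12) for Tsc22d3 and 0.081 (−0.044) for Nr3c1. In earlier-range muscle it gave 0.10 (−0.53) for Sgk1, −0.024 (0.19) for Zbtb16 and 0.037 (−0.075) for Nr3c1, and in later-range untreated livers −0.46 (0.17) for Fkbp5. With number ranges as a covariate, genotype gave 0.092 (−0.32) for Fkbp5, 0.0097 (−0.29) for Tsc22d3, 0.12 (−0.043) for Klf9 and 0.16 (−0.12) for Errfi1 in Cort liver and −0.019 (0.16) for Nr3c1 in untreated liver. With the replicate block, genotype gave 0.17 (−0.37) for Cdkn1a and 0.16 (−0.12) for Tsc22d3 in Dex liver, −0.11 (0.13) for Dusp1 in Cort liver, −0.0095 (0.047) for Dusp1 at 1 h and −0.10 (0.034) for Tsc22d3 in untreated liver. Dusp1 at 1 h against 3 weeks of Dex was −0.12 (0.086), Errfi1 in E47KO with Dex 0.12 (−0.097) and Nr3c1 in controls with Dex 0.19 (−0.020). That Nr3c1 value was 0.0073 with RLE, 0.0072 with DESeq2, 0.025 with the strand column and 0.014 with the groups compared alone. The strand column also gave 0.027 (−0.025) for Mt2 at 1 h against Cort and −0.054 (0.025) for Sgk1 in E47KO with Cort, and no filter gave −0.0086 (0.077) for Fkbp5 in liver against WAT.

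With 1 library left out, genotype values ranged in Dex liver from −0.44 to 0.16 for Tsc22d3, −0.98 to 0.043 for Mt2, −0.90 to 0.15 for Cdkn1a and −0.13 to 0.043 for Nr3c1. In Cort liver they ranged from −0.84 to 0.12 for Fkbp5, −0.61 to 0.36 for Dusp1, −0.19 to 0.15 for Klf9 and −0.59 to 0.19 for Errfi1. At 1 h they ranged from −0.00078 to 0.23 for Tsc22d3, −0.30 to 0.22 for Dusp1, −0.14 to 0.064 for Klf9 and −0.0091 to 0.078 for Errfi1. In untreated liver they ranged from −0.058 to 0.53 for Fkbp5 and −0.30 to 0.49 for Tsc22d3, in WAT from −0.60 to 0.17 for Zbtb16, −0.32 to 0.22 for Klf9 and −1.40 to 0.24 for Errfi1, and in muscle from −0.94 to 0.044 for Sgk1 and −0.19 to 0.016 for Klf9. In controls with Cort, Errfi1 ranged from −0.34 to 0.11, and with Dex Nr3c1 from −0.12 to 0.098. At 1 h against 3 weeks of Dex, Cdkn1a ranged from −0.098 to 0.45 and Errfi1 from −0.25 to 0.081, and against Cort Zbtb16 from −0.73 to 0.098 and Mt2 from −0.41 to 0.73. In E47KO livers Errfi1 ranged from −0.43 to 0.25 with Dex, and with Cort Tsc22d3 from −0.55 to 0.53, Zbtb16 from −0.21 to 0.88, Dusp1 from −0.69 to 0.29 and Sgk1 from −0.25 to 0.16. The difference of genotype effects ranged from −0.61 to 0.17 for Tsc22d3 with Dex, and with Cort from −1.05 to 0.019 for Tsc22d3, −0.95 to 0.023 for Dusp1 and −0.20 to 0.023 for Nr3c1. Between tissues, Fkbp5 ranged from −0.14 to 0.36 for liver against WAT and Errfi1 from −0.10 to 0.72 for WAT against muscle.

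Over all genes, genotype calls in Cort liver were 4, but 270 by DESeq2, 67 with the number range as covariate, 29 with the replicate block and 13 without a filter. In Dex liver they were 1, but 24 by DESeq2 and 62 without a filter. The replicate block gave 0 of the 10 for genotype wherever it was fitted. Between treatments it added Klf9 at 1 h against untreated (0.76) and against 3 weeks of Dex (−0.93) and Zbtb16 in E47KO with 3 weeks of Dex (2.41), and removed Klf9 in E47KO with Cort. In the tissue fit it removed Cdkn1a for liver against muscle and added Dusp1 (0.34). No paired analysis was possible in WAT because the groups share 1 replicate number, and with the number range as a covariate 0 of 16289 genes passed there. The median correlation of the 10 genes ranged from 0.35 without the Cort experiment to 0.65 without the untreated one. Restricting livers to number ranges was chosen after seeing the data.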
